A study of Mus musculus with 21 samples.

Results

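The memory precursor cells described here were the 522 of 6619 cells that the authors' deposited cell table names preMem. They came from draining lymph nodes of immunised mice, and 486 of them were among the 6183 cells of the sorted non-plasma-cell (non-PC) well. The other 36 were among the 436 cells of the plasma cell (PC) well and are given apart. Mice had received 100 µg of NP-KLH, a hapten on a carrier protein, in Sigma Adjuvant System under the skin of the tail base, and 5 mg of tamoxifen by gavage no earlier than day 6, which turned on the eYFP label through Cre-ERT2. Nodes were taken at day 10, day 16 or day 22 of the primary response from 2 mice a day. Live IgD-negative eYFP+ cells were sorted, tagged by mouse with CD45 antibody barcodes, pooled by well and captured with 10x 5' chemistry. All mice had the same immunisation and label, no unimmunised group is used here, and the labels give neither the promoter of the Cre nor the strain, sex or age. The days are single harvests of different mice, and because each well pooled all 6 mice, mice share capture and library preparation. By mouse the non-PC well held 50 and 273 memory precursors on day 10, 30 and 58 on day 16, and 44 and 31 on day 22. Day 10 mouse 2 alone gave 56.2% of them.

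In a germinal centre, B cells divide and mutate their receptors in the dark zone (DZ) and are tested for antigen binding and T cell help in the light zone (LZ). Some leave the cycle as memory B cells, which are quiescent, long-lived and recirculate. Cells on this path are known in mice for the chemokine receptor Ccr6, the oxysterol receptor Gpr183 (EBI2), which draws B cells to the outer follicle, the transcription factor Hhex, which acts in memory B cell formation, and Klf2, a Krüppel-like factor of quiescence and recirculation that drives S1pr1. Ighd encodes the heavy chain of IgD, carried mainly by B cells that have not switched class.

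The name preMem followed a cut on the deposited memory score, a module score per cell with no unit. The lowest preMem cell had 0.78004, just over the highest LZ cell at 0.7799, and 0 LZ, DZ, LZtoDZ (light zone cells returning to the dark zone) or PC cells of either well reached it. Of 47 prePC (pre-plasma) cells, 28 did, and these had a PC score of at least 0.25, against at most 0.248 in preMem. A preMem cell was thus a cell over the memory score cut and under the PC score cut, a range of a continuous score, and a difference between preMem and another state describes what that score selected. For that reason the calls between states below are a description, not independent evidence that the cells are memory precursors. Within 0.02 over the cut lay 64 preMem cells (13.2%), and within 0.02 under it lay 59 LZ cells (1.89%); within 0.05 these were 138 (28.4%) and 183 (5.87%).

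**Figure D1:**
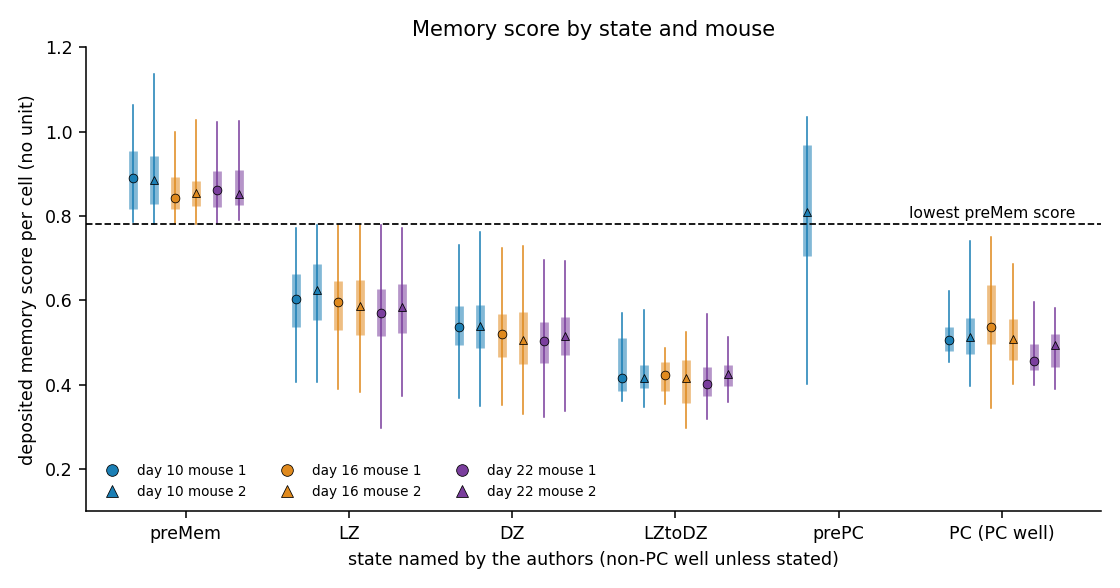
Deposited memory score per cell (vertical axis, no unit) in the 6 states (horizontal axis), by mouse: thin lines run from the lowest to the highest cell, thick bars cover the middle quartiles, symbols are medians, and mouse and state pairs under 10 cells are left out. All preMem cells lie at or over the dashed line at 0.780, no LZ or DZ cell does, and prePC cells lie on both sides of it.

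The median memory score was 0.868 over the 486 cells, with quartiles of 0.825 and 0.929 and a highest value of 1.14. Mouse medians averaged 0.864 ± 0.0191 in preMem and 0.594 ± 0.0184 in LZ (SD, n = 6 mice each), and the preMem medians lay between 0.842 and 0.890. The quartiles of all cells thus lay further apart than the medians of the mice. Spearman's rho of the score with the UMIs (unique transcript molecules) of a cell ran from -0.18 to 0.308 over the 6 mice, with no common sign. With the deposited light zone score it ran from 0.176 to 0.595, positive in each mouse, and with the deposited activation score from -0.496 to -0.135, negative in each. These are descriptions across 30 to 273 cells of a mouse, and scores of 1 cell share its depth.

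The promoters of 3 genes are printed because the genes had among the highest levels here relative to every other state and hold the letters CCACNCCC, the CACCC type of element that Krüppel-like factors such as Klf2 are known to bind. Cnn3 encodes an actin-binding calponin, Cd55 a complement regulator, and Sesn1 a sestrin that restrains mTORC1 signalling. Capitals mark CCACNCCC or its reverse complement, each strand was searched, and sequences are RefSeq's on GRCm38.p6, 5′ to 3′ on the gene's strand. The windows are at chr3:121426291-121426590 on the plus strand for Cnn3, chr1:130462695-130462994 on the minus strand for Cd55 and chr10:41887189-41887488 on the plus strand for Sesn1.
Cnn3: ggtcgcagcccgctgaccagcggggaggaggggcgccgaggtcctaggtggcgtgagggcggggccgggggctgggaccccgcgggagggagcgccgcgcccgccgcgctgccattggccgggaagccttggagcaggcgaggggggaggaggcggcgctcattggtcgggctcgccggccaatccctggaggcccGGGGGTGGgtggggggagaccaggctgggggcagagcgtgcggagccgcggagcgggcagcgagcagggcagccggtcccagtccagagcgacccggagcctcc
Cd55: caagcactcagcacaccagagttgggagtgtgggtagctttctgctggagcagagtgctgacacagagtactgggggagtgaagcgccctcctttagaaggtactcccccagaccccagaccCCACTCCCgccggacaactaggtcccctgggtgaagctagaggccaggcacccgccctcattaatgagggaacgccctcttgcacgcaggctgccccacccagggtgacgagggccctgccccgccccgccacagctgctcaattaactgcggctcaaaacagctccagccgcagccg
Sesn1: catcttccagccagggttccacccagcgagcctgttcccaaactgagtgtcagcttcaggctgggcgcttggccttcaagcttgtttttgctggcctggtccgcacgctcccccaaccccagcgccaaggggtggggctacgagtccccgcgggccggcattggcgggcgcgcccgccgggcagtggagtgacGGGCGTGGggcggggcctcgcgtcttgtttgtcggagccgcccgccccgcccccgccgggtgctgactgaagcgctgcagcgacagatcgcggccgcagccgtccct
Of the 12 genes of the highest ratio described below, 9 had a promoter in the table, and 5 of their 12 windows (41.7%) held the letters. The share was 24.9% over the windows of the 173 genes that were highest in preMem in all 6 mice, 22.8% over those of the genes tested and 17.6% over all promoters. A match is a description of letters and not a site in use.

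All 5 named markers were at their highest mean level in preMem of the 6 states. Levels are counts per 1000000 UMIs (CPM) in the summed cells of a mouse, and log2 differences are from edgeR's quasi-likelihood fit over mice with Benjamini-Hochberg adjustment. Klf2 (chr8:72319033-72321656, GRCm38, plus strand) had 212, 256 and 309 CPM (lowest, median and highest mouse) in preMem, against 5.42, 7.98 and 17.7 CPM in LZ. Klf2 was higher in 6 of 6 mice, by 4.80 ± 0.19 (log2, SE, with an adjusted p of 8.81e-16), and groups did not overlap. Because preMem was cut on a score of the same cells' expression, this p-value describes that selection and is no independent evidence. Ccr6 (chr17:8236043-8257141, plus) had 122, 205 and 250 CPM in preMem, against 3.10, 10.4 and 24.1 CPM in LZ, a difference of 4.28 ± 0.22. Gpr183 (chr14:121952551-121965195, minus) had 69.7, 124 and 153 CPM in preMem, against 2.71, 7.03 and 13.6 CPM in LZ. Hhex (chr19:37434810-37440731, plus) differed least of the 5, with 67.8, 89.2 and 100.2 CPM in preMem and 11, 14.6 and 18.8 CPM in LZ. Ighd (chr12:113406604-113416324, minus) had 120, 144 and 157 CPM in preMem, against 6.61, 8.50 and 17.7 CPM in LZ, although cells had been sorted as IgD-negative. None of the 5 overlapped between preMem and LZ, and each was higher in 6 of 6 mice. Ranges of other named genes, such as Gapdh and Cox5a, did not overlap either, and the share over all genes is not given here.

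The order of states below preMem differed between the markers. Pre-plasma cells came next for 4 of them: Klf2 averaged 261 ± 40.4 CPM in preMem (SD, n = 6), against 126 ± 95.5 in prePC (n = 4) and 33 ± 13.1 in PC (n = 6). PC values here and below come from the PC well, a capture apart from that of the other states. The prePC sums held 3 to 24 cells a mouse, and their values for Klf2, Ccr6, Gpr183 and Hhex overlapped those of preMem. Whether these neighbours differed was not tested, and sums of so few cells cannot show it. Ighd was the exception, at 142 ± 15.1 CPM in preMem and 6.61 ± 11 in prePC, with no overlap and a ratio of 14.2 to the next state, LZ. In PC, Ccr6 and Hhex each averaged 0.651 CPM, whereas Gpr183 averaged 28.4 ± 21.2 CPM there, above its LZ level of 7.87 ± 3.83.

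**Figure D2:**
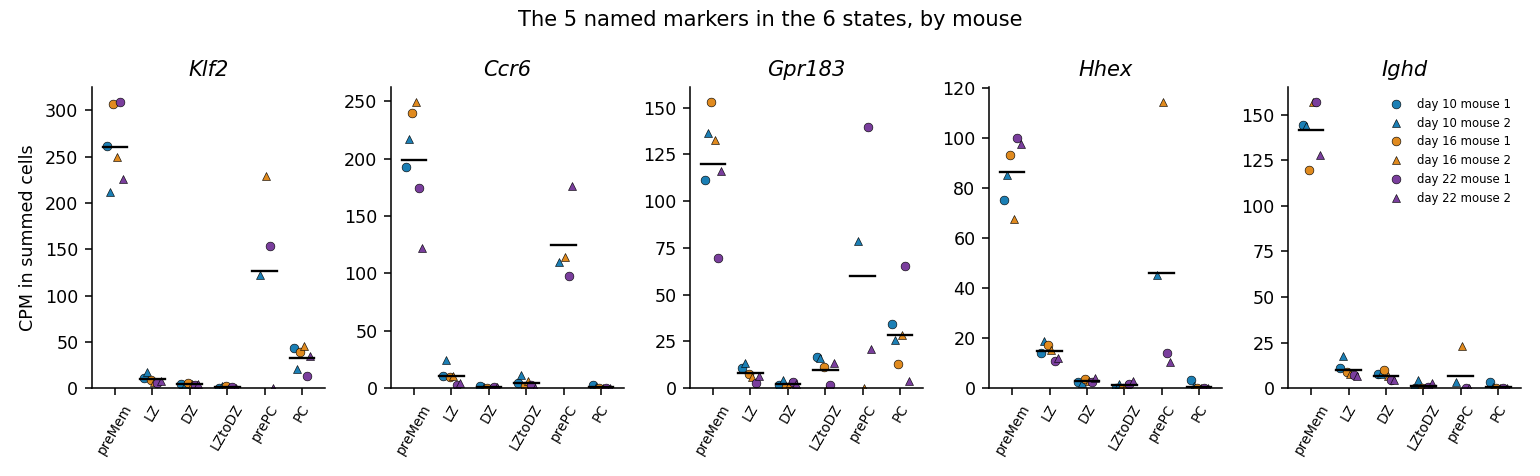
CPM (vertical axes) of the 5 named markers in summed cells of each mouse, for the 6 states (horizontal axes, preMem at the left); symbols are mice and short lines are means over mice. Levels are highest in preMem, prePC values overlap them for Klf2, Ccr6, Gpr183 and Hhex, and Ighd stands alone in preMem, at 120 to 157 CPM.

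Few single cells held all the markers. With each cell thinned to 4758 UMIs, 301 of the 486 preMem cells remained and 185 (38.1%) were too shallow, against 2826 of 3116 LZ cells kept. A UMI of Klf2 was found in 50.2% of thinned preMem cells (59.7% before thinning), 4.0% of LZ cells (5.94%) and 11.6% of PC (23.9%). For Ccr6 the thinned shares were 51.2% in preMem, 4.32% in LZ and 0.862% in PC, and for Ighd 39.5% in preMem, 4.53% in LZ and 0.431% in PC. Before thinning these were 49.8%, 6.39% and 1.28% for Ccr6, and 48.8%, 6.87% and 0.855% for Ighd. PC are of the other capture, so DZ cells of the same well serve as a further background: there the thinned shares were 2.13% for Klf2, 0.363% for Ccr6 and 2.72% for Ighd (3.75%, 0.682% and 6.39% before thinning). Median depths were 5368 UMIs in preMem, 7841 in LZ, 9303 in DZ and 18560 in PC. Of the 301 cells, 29 (9.63%) had a UMI of none of the 5 markers, and 64, 105, 69, 28 and 6 had 1, 2, 3, 4 and 5. Among thinned LZ cells, 2304 (81.5%) had none. The median memory score was 0.802 in preMem cells with 0 markers and 0.960 in those with 5, and 58.6% and 100% of these cells lay in the deposited cluster that held most of the state.

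That cluster, number 4, held 440 of the 486 cells (90.5%), and 41 others were in cluster 0. It also held 70 LZ, 22 prePC and 1 DZ cell of the same well. In preMem cells outside it, Klf2 stood at 76.2 CPM (exact Poisson 95% interval 49.3 to 112, 25 UMIs), against 256 CPM (236 to 276) in those inside. Cd55 stood at 15.2 CPM (4.95 to 35.6) outside and 96.4 CPM (84.7 to 109) inside, whereas Jchain stood at 710 CPM (622 to 807) outside and 263 CPM (243 to 283) inside. Plac8 differed little, at 201 CPM (156 to 256) outside and 234 CPM (216 to 253) inside. The intervals cover counting error only.

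Expression changed by steps along the score, on either side of the cut. The 486 cells were split at their median score into an upper and a lower bin of 243 cells, and LZ cells into the 330 within 0.08 under the cut and the 2786 further under it. Mean Klf2 was 346 ± 63.7, 184 ± 40.5, 49.8 ± 20.2 and 5.59 ± 2.26 CPM over these 4 bins, from the upper preMem bin to the far LZ bin (SD, n = 6 mice). Ly6d, a surface protein known as a mark of B lineage commitment in mice, stood at 1756, 1116, 375 and 135 CPM in the same order. Genes of the germinal centre programme ran the other way: S1pr2, the receptor that confines cells to the follicle centre, averaged 45.0, 88.7, 167 and 194 CPM, and Mef2b, a cofactor of Bcl6 expression, 38.6, 77.2, 171 and 216 CPM. Jchain, the joining chain of secreted IgM, averaged 222, 399, 765 and 988 CPM. LZ cells just under the cut thus held intermediate levels of the markers. Median UMIs per cell fell in the same order for Ly6d (7, 4, 1 and 0) and rose for Jchain (1, 2, 4 and 7). The share of cells called G1 was 94.7%, 91.4%, 89.4% and 50.1%, and median UMIs per cell were 5175, 5605, 6297 and 8112. The score was made from these cells' expression, so the order of its own genes is given without a test, and the parts of phase and depth were not tested here.

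**Figure D3:**
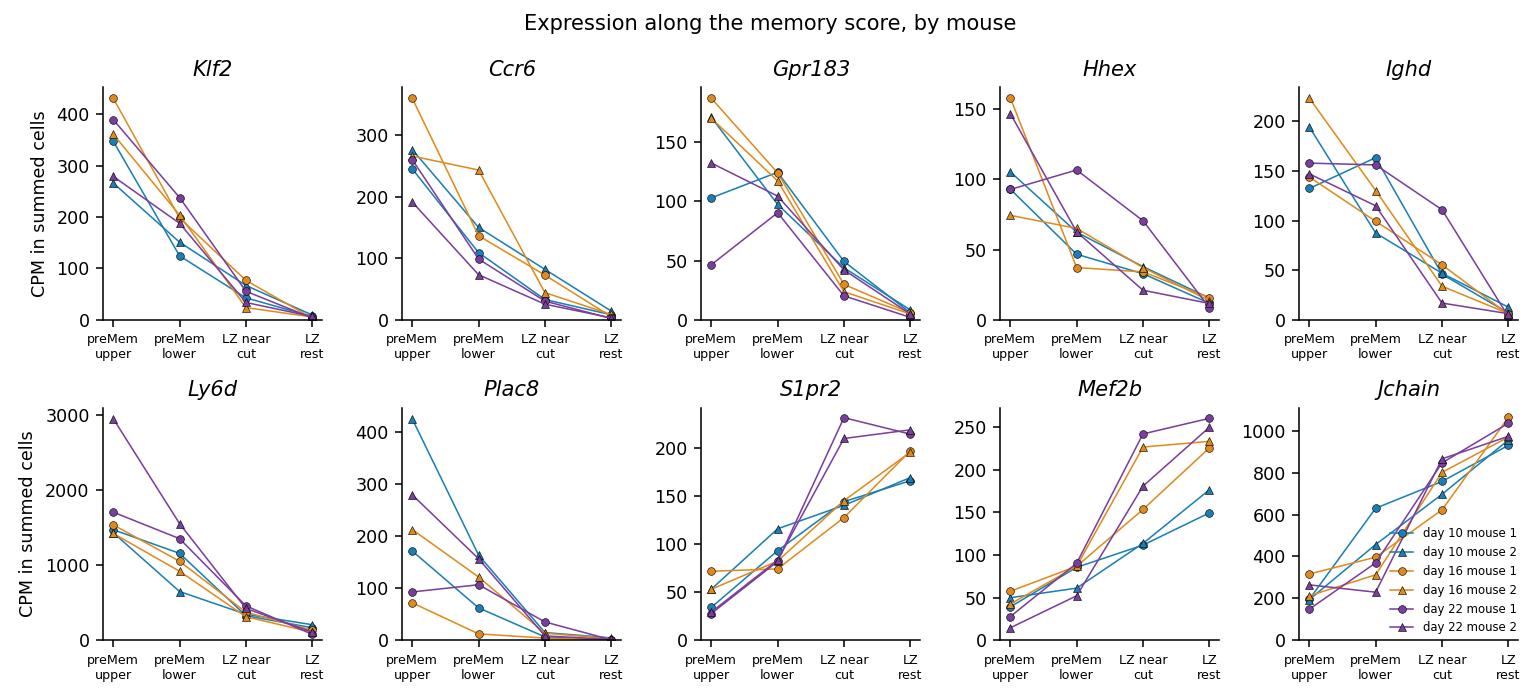
CPM (vertical axes) of 10 genes in summed cells of each mouse along the memory score: preMem cells at or over their median score, preMem cells under it, LZ cells within 0.08 under the cut and all other LZ cells (horizontal axes, left to right); symbols and lines are mice. On average over mice the 5 markers, Ly6d and Plac8 are highest at the left, and S1pr2, Mef2b and Jchain are lowest there.

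Memory precursors held fewer UMIs than LZ cells and were mostly called G1. The mouse medians averaged 5157 ± 602 UMIs per cell in preMem and 7920 ± 779 in LZ, lower in 6 of 6 mice by 2764 on average (2-sided exact permutation test by sign changes, p = 0.03125, the smallest that 6 mice allow; adjusted over UMIs and genes, 0.03125). Genes detected averaged 1747 ± 105 in preMem and 2333 ± 114 in LZ, also lower in 6 of 6 (p = 0.03125, exact). At 1 fixed depth the gap was smaller, 1610 ± 28.2 genes in preMem and 1720 ± 18.5 in LZ, still lower in 6 of 6 mice (p = 0.03125, exact). The deposited phase call put 90.7 ± 3.58% of preMem cells in G1, 53.9 ± 5.44% of LZ and 37.2 ± 4.64% of DZ cells (n = 6), and the range over mice, 86.4% to 95.2% in preMem, did not overlap LZ (46.0% to 59.0%). Among G1 cells alone the UMI difference was -1288 and the gene difference -320.

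Across the transcriptome, 1496 of 8783 genes tested (17.0%) were higher in preMem than in LZ and 1649 (18.8%) were lower. Against DZ, 1866 (21.2%) were higher and 1912 (21.8%) lower; these comparisons share the preMem sums. With only G1 cells the LZ comparison gave 878 higher and 786 lower, and with thinned cells 854 and 1026. Of the 3145 genes called, 2811 were tested among G1 cells. There 1528 were called in the same direction and 9 in the opposite direction. The lists below should be read against the shares of the fit with all cells, where the median of all genes was 0.018. For G1 cells and thinned cells the number of all genes tested is not given here. List counts under those settings thus have no share over all genes beside them. The listed genes include some of the score's likely members, and which genes made up the score is not given in the sources used here.

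Of 18 tested memory B cell genes, 13 rose in preMem over LZ and 0 fell, with a median log2 difference of 2.96. Bcl2, which blocks mitochondrial apoptosis, had 13.3, 22.1 and 45.1 CPM in preMem against 0.863, 1.47 and 2.24 CPM in LZ. Cd38, a marker that mouse germinal centre B cells lose, differed by 4.37. Cd80, a memory subset marker, rose by 2.90 ± 0.66 but reached only 4.36 to 6.66 CPM. Bach2, Nt5e, Cd44, Il9r and Pdcd1lg2 did not pass, with differences of -0.09 to 0.74. The naive follicular B cell genes shared much of this pattern: 11 of 12 rose, with a median of 1.00, among them Ccr7, Cd55, Ighd, Cd72 and Fcmr. Their summed level was 2417, 2761 and 3083 CPM (lowest, median and highest mouse) in preMem and 969, 1270 and 1700 CPM in LZ. The germinal centre gene Mef2b stood at 36.6 to 74.0 CPM in preMem and 145 to 260 CPM in LZ, and all 15 germinal centre genes tested were lower in preMem. What part resting B cells without a germinal centre history have in these sums was not tested.

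Of 17 memory and quiescence transcription factors, 11 rose and 1 fell (median 1.48). Among G1 cells this was 5 and 1 of 13 tested with a median of 0.18, and among thinned cells 5 and 1 of 13 with 0.21. Zeb2, a zinc finger transcription factor, had 43.2, 67.9 and 79.9 CPM in preMem against 2.61, 6.59 and 12.9 CPM in LZ (3.22 ± 0.22), without overlap. Klf3 differed by 4.88, Bhlhe40 by 1.82 and Foxp1 by 1.69. Zbtb32, which in mice limits memory recall, had 6.66 to 39.1 CPM in preMem and 0.432 to 1.86 CPM in LZ. Id3, an inhibitor of E proteins, fell by 0.45 and Bach2 stood at -0.09.

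Cell cycle brakes and quiescence genes rose in 12 of 16 and fell in 1, with a median of 1.18. Cdkn1b (p27), which inhibits cyclin-dependent kinases, had 40.0, 56.9 and 61.7 CPM in preMem against 3.29, 5.54 and 11.2 CPM in LZ (3.07 ± 0.23). Pik3ip1, a brake on PI3-kinase, differed by 3.01, and Txnip, which limits glucose uptake, by 1.73 ± 0.09. Ccnd2, a D-type cyclin, rose by 2.19, while Ccnd3, the cyclin of dark zone division, fell by 1.02. Cdkn2c, another kinase inhibitor, did not pass (-0.28). Among the proliferation genes, all 24 S phase genes and all 25 G2 and M phase genes tested were lower in preMem than in LZ, with medians of -1.54 and -1.07. Among G1 cells alone, 9 of 23 S phase genes were lower and 1 higher (median -0.26), and of 24 G2 and M phase genes 0 were lower and 2 higher (median 0.28) (cells called G1 are by that call low in S, G2 and M genes). Clspn, a checkpoint adaptor, had 12.2 to 27.1 CPM in preMem and 97.2 to 114 CPM in LZ, and among G1 cells it did not pass (-0.09). Mcm5 of the replicative helicase had 24.4, 46.4 and 70.9 CPM in preMem and 184, 204 and 222 CPM in LZ.

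**Figure D4:**
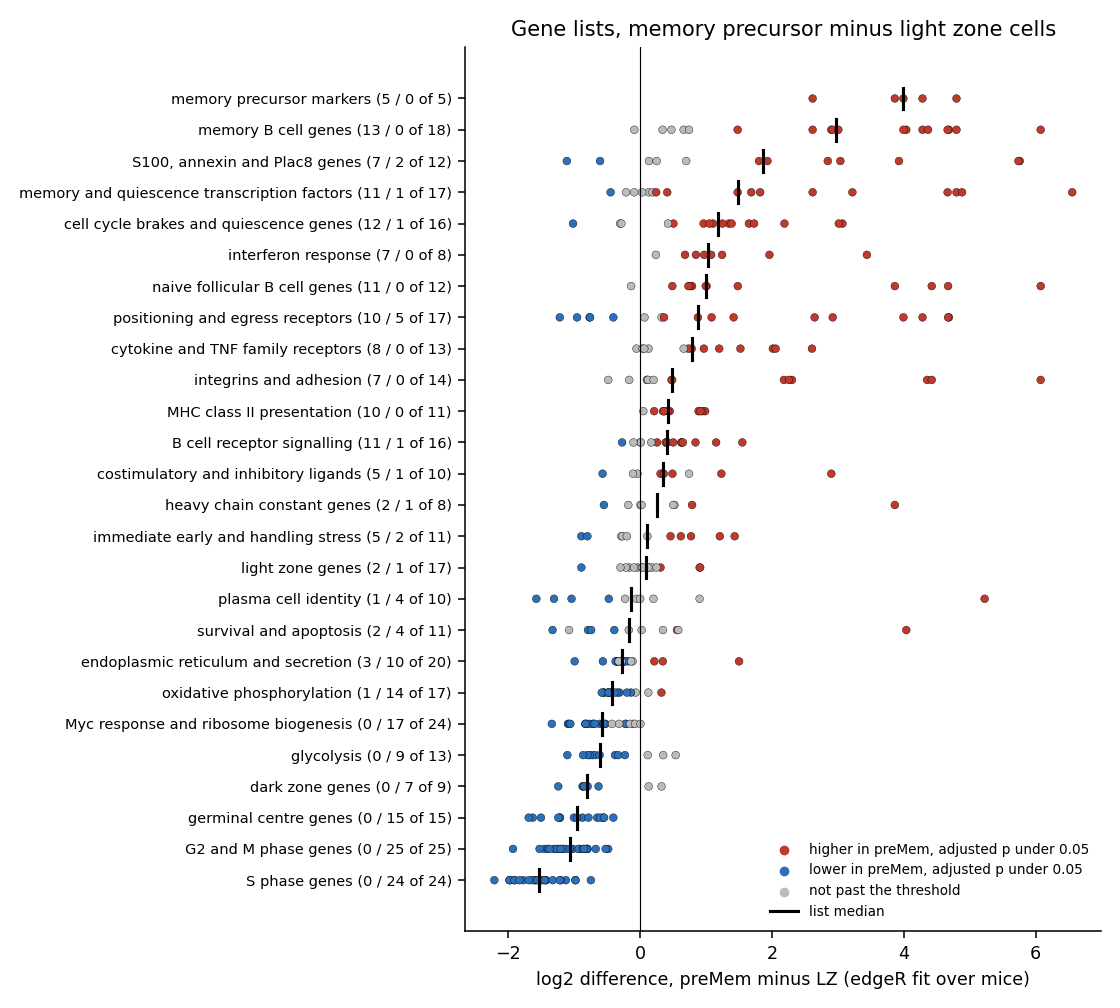
Log2 difference of each tested gene between preMem and LZ (horizontal axis; positive is higher in preMem) for gene lists (rows, ordered by median, with the numbers higher and lower of those tested); red and blue points passed adjusted p under 0.05, grey points did not, and black ticks are list medians. Marker and memory lists lie to the right and S phase, G2 and M phase and germinal centre lists to the left.

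Receptors for position and exit split in sign. Of 17 positioning and egress genes, 10 rose and 5 fell. S1pr1, the receptor for exit into lymph, had 33.3, 60.6 and 85.5 CPM in preMem against 1.16, 2.04 and 4.10 CPM in LZ (4.68 ± 0.25), and S1pr4 had 74.1, 103 and 108 CPM against 12.4, 16.0 and 20.0 CPM. Ccr7, for T zone chemokines, differed by 4.67 ± 0.29 and Cxcr3, for inflammatory chemokines, by 2.92. S1pr2 and its signalling partner Gna13, which hold cells in the follicle centre, fell by 1.22 and 0.41, and Rgs13, a germinal centre regulator of chemokine signals, by 0.96. Cxcr4 and Cxcr5, the receptors for the dark zone and follicle chemokines, stood at 0.33 and 0.07 and did not pass, but among G1 cells Cxcr4 was higher by 0.83 (adjusted p = 0.0225). Of 14 integrin and adhesion genes 7 rose and 0 fell. Itgb7, a gut-homing integrin chain, had 63.1 to 122 CPM in preMem and 2.52 to 5.32 CPM in LZ, and Vim, the filament vimentin, 526 to 754 and 118 to 214 CPM. S100, annexin and Plac8 genes rose in 7 of 12 and fell in 2. S100a10, a partner of annexin A2, had 93.2, 235 and 397 CPM in preMem against 1.49, 3.66 and 12.1 CPM in LZ. Plac8 had 40.0, 139 and 302 CPM in preMem against 1.49, 2.23 and 6.21 CPM in LZ, and ranged widely between mice.

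Germinal centre genes were lower in preMem in 15 of 15 tested, with a median of -0.96. Mef2b had 36.6, 59.1 and 74.0 CPM in preMem against 145, 227 and 260 CPM in LZ (-1.63 ± 0.12), and Basp1 fell by 1.5 ± 0.11. Ung, a uracil glycosylase of base excision repair, fell by 1.69 ± 0.14, which became -0.33 without a call among G1 cells. These differences were partial, and among G1 cells 13 of 15 were lower. Light zone genes hardly moved against LZ, with 2 of 17 higher and 1 lower (median 0.093), whereas against DZ 15 of 17 were higher (median 1.33). Without day 10 mouse 2, 0 light zone genes were higher than in LZ (median -0.09), and without day 16 mouse 1 or day 22 mouse 1 the count was 1. Cd83, an activation marker of the light zone, had 409, 601 and 693 CPM in preMem and 466, 510 and 528 CPM in LZ with overlapping ranges, and its difference of 0.31 became -0.015 among G1 cells and lost its call with any of 4 mice left out. Cd69, the early activation receptor, rose by 0.91 ± 0.20, with 4 of 6 mice higher, and without day 10 mouse 2 it did not pass (0.61, adjusted p = 0.0797). Egr1, an immediate early gene of receptor signalling, fell by 0.89 ± 0.24. Dark zone genes were lower than in LZ in 7 of 9 (median -0.81), but in 3 of 9 without day 10 mouse 2 and in 4 of 9 with thinned cells, and among G1 cells 2 were higher and 2 lower (median 0.30).

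Among receptors and their signalling genes more rose than fell. B cell receptor signalling genes rose in 11 of 16 and fell in 1 (median 0.41), among them Fcgr2b, the inhibitory Fc receptor, with 61.0 to 96.2 CPM in preMem and 20.5 to 33 CPM in LZ, and Bank1, an adaptor, with 368, 376 and 488 CPM in preMem and 98.2, 138 and 209 CPM in LZ. MHC class II genes rose in 10 of 11 (median 0.43), with H2-Aa at 7124, 7440 and 8331 CPM in preMem against 5682, 5926 and 5963 CPM in LZ. Of 13 cytokine and TNF family receptors 8 rose and 0 fell, led by Il10ra, with 56.7 to 86.6 CPM in preMem and 5.23 to 19.8 CPM in LZ, and by Il27ra (2.06) and Il6ra (2.01). Cd40, which receives T cell help, and the BAFF receptor Tnfrsf13c stood at 0.13 and -0.06 and did not pass, and among G1 cells Tnfrsf13c was lower by 0.27 with an adjusted p of 0.00427. Among G1 cells the medians were 0.23 for receptor signalling (7 of 16 higher), 0.26 for MHC class II (8 of 11 higher) and 0.46 for the cytokine and TNF family receptors (6 of 10 higher, 1 lower). Costimulatory and inhibitory ligands rose in 5 of 10 and fell in 1; among G1 cells 1 of 8 was higher and 1 lower, and 2 were higher without day 10 mouse 1 or without day 10 mouse 2, 2 with thinned cells and 3 without day 22 mouse 1. Interferon response genes rose in 7 of 8, with a median of 1.02 (4 of 7 among G1 cells, 4 of 7 with thinned cells), and Ifi203, an interferon-induced gene, had 37.0 to 99.9 CPM in preMem and 1.75 to 14.3 CPM in LZ. In the survival list Bcl2 and Mcl1 rose by 4.04 and 0.56 while Bcl2l1 (Bcl-xL), Bid, Bad and Bax fell by 1.33, 0.79, 0.74 and 0.39; the Bcl2l1 call was lost with any of 5 mice left out.

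Genes of growth and energy metabolism were mostly lower. Of 24 Myc response and ribosome biogenesis genes 17 fell and 0 rose (median -0.59), and among G1 cells 12 of 23 fell (median -0.33). Among them was Ranbp1, a nuclear transport cofactor, at 183, 207 and 218 CPM in preMem against 529, 549 and 569 CPM in LZ. Glycolysis genes fell in 9 of 13 and oxidative phosphorylation genes in 14 of 17, with 1 oxidative phosphorylation gene higher. Gapdh had 659, 753 and 833 CPM in preMem and 1324, 1364 and 1391 CPM in LZ. The plasma cell list held 1 gene higher and 4 lower of 10 (2 lower without day 10 mouse 2), with Jchain at 244, 301 and 364 CPM in preMem against 911, 964 and 1031 CPM in LZ; the gene higher was Fkbp11, with 6.10 to 26.1 CPM in preMem. Of 20 endoplasmic reticulum genes 3 rose and 10 fell, but 4 were lower without day 10 mouse 2, and 6 with G1 cells or with DESeq2 size factors; 1 was higher without day 10 mouse 1 or without day 22 mouse 2. Further, of 11 immediate early and handling stress genes 5 rose and 2 fell (1 without day 16 mouse 1, 4 in the main cluster).

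Markers of other cells were low. T cell markers summed to 54.1, 74.0 and 122 CPM (lowest, median and highest mouse) in preMem and 101, 135 and 157 CPM in LZ, with Cd3e, Trbc1, Trbc2, Cd4, Cd8a and Il7r at 0 in preMem, so most of the sum was Lck. Myeloid markers summed to 214, 271 and 299 CPM in preMem and 223, 315 and 344 CPM in LZ, most of it Cst3, which averaged 232 CPM in preMem and 237 CPM in LZ. Csf1r and Ly6g were at 0 in preMem and Lyz2 averaged 0.808 CPM in preMem and 40.3 CPM in LZ. Tyrobp averaged 13.5 CPM in preMem and 7.55 CPM in LZ, Fcer1g 5.91 and 3.6 CPM, Cd68 12.9 and 10.1 CPM and Itgam 1.11 and 0.215 CPM. Of the 4 myeloid markers tested Tyrobp rose and Lyz2 fell, and the Tyrobp call was lost without day 10 mouse 1 or 2, day 16 mouse 2 or day 22 mouse 2, the Lyz2 call without day 10 mouse 1, day 16 mouse 2 or day 22 mouse 1. Further, 6 of 7 NK cell markers were at 0 there. Pecam1, which endothelium and some B cells express, was the stromal list's tested gene, with 47.9, 52.2 and 89.4 CPM in preMem and 16.5, 20.0 and 21.3 CPM in LZ, and Cdh5, Cxcl13 and Ccl19 were at 0 in preMem. Hbb-bt of red cells fell by 1.05, and without day 10 mouse 2 (-0.51) or with thinned cells (-0.63) it did not pass.

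Of 3779 genes at 30 CPM or more in preMem, 992 (26.2%) had their highest mean there of the 6 states. Counted alike in the other states, the share was 41.8% in LZtoDZ, 23.2% in DZ, 22.7% in PC, 14.8% in prePC and 9.29% in LZ. Outside immunoglobulin, ribosomal, mitochondrial and predicted genes, 890 were highest in preMem, of which 173 were so in each of 6 mice. Day 10 mouse 1 and day 16 mouse 1 gave no prePC sum to compare. Most led narrowly: the median ratio to the next state was 1.22, and 51 were over 2-fold and 7 over 3-fold. The next state was LZ for 369, prePC for 241 and DZ for 213. By ratio the leading genes of the 173 were Cnn3 (49.3 CPM, 10.3 times the next state), Fam101b (30.1 CPM, 8.34 times), Il10ra (70.3 CPM, 5.77 times), Strn4 (3.39 times), Sesn1 (3.18 times) and Gimap8 (3.04 times), followed by Ephx1, Bank1, Cd55, Abcg1, Foxn3 and Dock10 at 2.68 to 2.93 times. Cnn3 ranged from 13.3 to 82.8 CPM over mice, and Fam101b, at 4.36 to 60.1 CPM in preMem, overlapped LZ at 1.94 to 5.47 CPM. The means gave each mouse equal weight, and prePC sums of as few as 3 cells entered them. Pooled over mice, prePC held 11 UMIs of Cnn3 and 26 of Il10ra among 815306, against 131 and 196 among 2902101 in preMem. By these counts preMem led prePC by less than 10.3 and 5.77 times. Fam101b, with 2 UMIs in prePC, did not share this limit.

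Memory precursors were mostly unswitched. Taking for each cell the heavy chain class with the most constant region UMIs, 85.6 ± 8.61% of preMem cells with a class were IgM or IgD (72.9% to 96.2% over mice), against 47.5 ± 14.1% of LZ cells (32.7% to 66.5%). The share was higher in 6 of 6 mice (2-sided exact permutation test, p = 0.03125, the smallest possible; 0.0625 after adjustment over 4 classes), and the ranges did not overlap. IgG1 cells made up 10.8 ± 5.86% of preMem and 40.8 ± 9.01% of LZ cells (exact p = 0.03125, adjusted 0.0625, lower in 6 of 6), and IgG2b cells 2.51% and 8.60% (exact p = 0.0938). The adjusted values did not pass 0.05, and 6 mice cannot give a smaller raw p. Ighd, a named marker of this state, counts towards the IgM or IgD class, and the state was cut on a score of the same cells' expression. The test thus describes the cells that the score selected. Sorting removed cells with IgD on the surface, not cells with IgM.

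The share of memory precursors among non-PC cells was 9.04% and 18.8% on day 10, 4.11% and 6.09% on day 16, and 3.31% and 2.66% on day 22. No mouse of a later day reached a mouse of an earlier day. Across the 6 mice Spearman's rho with the day was -0.956 and Pearson's r was -0.806 (each p = 0.0222 by exact permutation over 90 assignments, the smallest possible, and unchanged by adjustment over both). Leaving out the 2 day 10 mice or the 2 day 22 mice left rho at -0.894 with 4 mice, where p cannot go below 0.333, so the trend rests on 2 mice a day. Fewer memory precursors and more of other sorted cells cannot be told apart in a share, and the time from tamoxifen to harvest is not given by mouse.

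**Figure D5:**
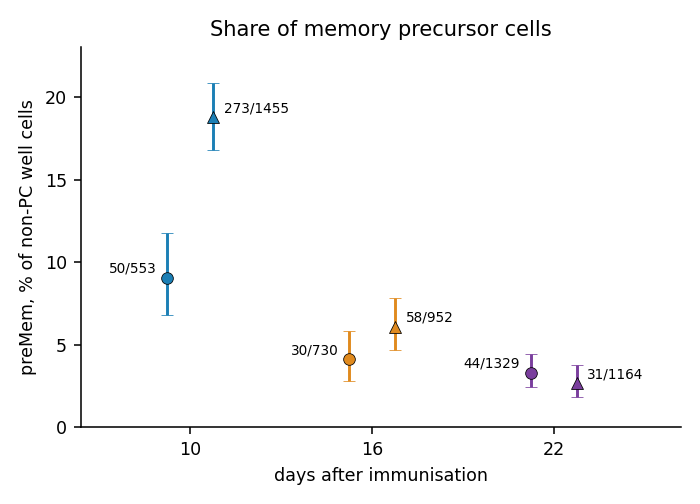
Memory precursor cells as a percent of all non-PC well cells (vertical axis) for each mouse against the day of harvest (horizontal axis); bars are exact 95% binomial intervals, which cover counting error only, and labels give cells over all cells. Shares stand at 9.04% and 18.8% on day 10 and at 3.31% and 2.66% on day 22.

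Within memory precursors few genes were called over the days, with 2 mice a day, and the number moved with the processing. Of 3808 genes tested over the 3 days, 13 passed (0.341%; edgeR's quasi-likelihood test, Benjamini-Hochberg; 203 had an unadjusted p under 0.05), and 12 of them were immunoglobulin genes, whose variable segments differ between B cell clones. The other was Ifi27l2a, an interferon-induced mitochondrial protein gene, at 845 and 1039 CPM on day 10, 426 and 370 CPM on day 16 and 523 and 617 CPM on day 22. In LZ it had 434 and 653, 171 and 164, and 210 and 184 CPM on the same days, so both states were highest on day 10. With thinned cells it did not pass, and the 3 genes called were all immunoglobulin genes. Day 22 minus day 10 gave 2 calls (0.0525%; 201 unadjusted), Igkv6-15 and Igkv3-12. Klf2 stood at 262 and 212, 306 and 250, and 309 and 226 CPM over the days, with overlap. Ccr6 stood at 192 and 217, 240 and 250, and 174 and 122 CPM, and its day 22 minus day 10 difference of -0.52 had an adjusted p of 0.906. Apoe, chosen after its values were seen, had 244 and 320, 466 and 444, and 471 and 788 CPM over the days. Its day 22 minus day 10 difference of 1.06 had an adjusted p of 0.123. With immunoglobulin genes left out of the fit the difference hardly changed, at 1.01, while its adjusted p was 1.01e-06. In that fit 24 of 3715 genes passed over the days. Those included Apoe, Ifi27l2a, Irf7, Irf1, Ifi47 and Ly6a, and 22 of the 24 were lower on day 16 than on day 10. In 15 of the 24 both day 16 mice lay under both day 10 mice. The 24 were picked by the day test on these same values, so both counts describe picked genes only. The matching shares over all 3715 genes are not given here. The median log2 difference of all 3715 genes, day 16 minus day 10, was 0.0054. That fit also called Slpi, whose day 10 mice stood as far apart as 514 and 83.4 CPM, and S100a6, with 0 and 136 CPM on day 16. Its small p-values thus draw on spread shared between genes and do not measure the spread between the 2 mice of a day.

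The change from day 10 to day 22 differed between preMem and LZ for 11 of 8337 genes (0.132%; test of the difference itself; 416 unadjusted), 9 of them immunoglobulin genes. Cd72, an inhibitory coreceptor of B cells, had 349 and 329, 360 and 351, and 514 and 299 CPM in preMem over days 10, 16 and 22, against 210 and 224, 116 and 114, and 75.9 and 102 CPM in LZ. Ly6d had 1353 and 1066, 1279 and 1067, and 1521 and 2137 CPM in preMem and 186 and 229, 153 and 121, and 94.7 and 125 CPM in LZ. Ighm had 400 and 620, 759 and 798, and 632 and 549 CPM in preMem, against 566 and 543, 363 and 353, and 233 and 282 CPM in LZ. In LZ both day 22 mice lay under both day 10 mice for all 3 genes, and in preMem they did so for none of the 3. These 3 were picked by the test of this difference on the same values, so the pattern largely follows from the choice. How many of all 8337 genes share it is not given here.

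The 36 memory precursors of the PC well, from 5 mice, had a median memory score of 0.872. Their summed 177661 UMIs gave Klf2 at 158 CPM (exact Poisson 95% interval 105 to 228), against 235 CPM (218 to 254) in the non-PC well, and Ccr6 at 174 CPM (119 to 248) against 210 CPM (194 to 228). Ighd was higher in the PC well, at 433 CPM (342 to 542) against 144 CPM (131 to 159), and so was Plac8, at 614 CPM (504 to 740) against 230 CPM. Ighm stood at 1024 CPM against 619 CPM and Jchain at 507 CPM against 313 CPM. These sums come from 0 to 13 cells a mouse, so wells are compared as pooled counts with no test over mice. Of 6 cell barcodes found in both wells, 5 were preMem cells of the non-PC well.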

How the data were processed

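The deposited matrix holds raw UMI counts (unit: count) that the authors made with Cell Ranger and Seurat on mm10/GRCm38, per the submitters' processing notes, with versions not stated; the deposited cell table gives state, phase, cluster, day and mouse and the authors' module scores (unit: score). The rule for the states, the phase method and the treatment of doublets are not given in the sources used here, and no cell was removed. The members and the gene lists were chosen with earlier results of these data known. Counts were summed per mouse and state (at least 10 cells, prePC at least 3) and tested with edgeR 4.0.16 in R 4.3.3 (quasi-likelihood, TMM, filterByExpr, Benjamini-Hochberg, threshold 0.05). State fits held preMem, LZ, DZ and LZtoDZ with the mouse as a block, because both sums of a mouse come from 1 animal; deviations from the state means correlated at 0.0224 to 0.154 (LZ) and 0.0207 to 0.188 (DZ). Day fits had no block. The fits were tested on simulated data. Small p-values draw on spread shared between genes, not on 6 mice alone. Single measures were compared over mice by exact permutation tests (scipy 1.17.1). Summed preMem cells held 2902101 UMIs in the non-PC well. Intervals are exact, at 95%, and cover counting error only. Named genes were the 5 markers, the 12 highest ratios to the next state, the 10 largest differences in each direction, up to 4 per list and called day genes, not all printed; other list members are given by log2 difference. Positions are from GENCODE M21. Alternatives were DESeq2 1.42.0 (size factors, own test), no filter, at least 30 cells, G1 cells, thinned cells, no immunoglobulin genes, no block, 2 states, 1 cluster and each mouse left out. Some genes are not reported here.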

Additional observations from a re-analysis of the deposited data

Results flagged for a closer look

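Among 63 sets of 6 mice looked at, 5 genes had 1 mouse far from the other 5 in memory precursor cells by Dixon's 95% criterion, which chance alone meets in about 1 of 20 sets. Lck, a kinase best known from T cells, stood at 122 CPM in day 22 mouse 2, and the adhesion protein Pecam1 at 89.4 CPM in day 16 mouse 2, each the highest of the 6. In day 22 mouse 1 the receptor S1pr4 was lowest at 74.1 CPM, Cd80 lowest at 4.36 CPM on 1 UMI, and Fkbp11 highest at 26.1 CPM on 6 UMIs.

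The change between day 22 and day 10 differed between memory precursor and light zone cells for 11 genes, by a test of the difference itself in edgeR with Benjamini-Hochberg adjustment. A positive log2 value means a larger rise, or a smaller fall, in memory precursors. The values were 1.45 for Ly6d (adjusted p = 0.000727), 1.51 for Cd72 (adjusted p = 0.0487) and 1.26 for Ighm (adjusted p = 0.0213). For heavy and kappa variable segments they were 3.30 for Igkv3-12, 4.89 for Igkv4-80, 1.88 for Igkv1-117, -2.38 for Igkv12-98, -3.74 for Igkv6-15, -4.15 for Igkv6-13, -5.20 for Igkv4-74 and -2.21 for Ighv1-22. The part of single clones in the variable segments was not tested.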

How the results depend on the processing

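Between memory precursor and light zone cells 3145 genes were called, 1664 with only G1 cells and 1880 with thinned cells; between memory precursor and dark zone cells 3778 were called, and 2156 and 2342 under the same settings. Fewer cells and UMIs enter both settings, and their parts in the lower counts were not tested. Without the mouse as a replicate block the counts were 3112 and 3710; the day fits had no block. Leaving out each mouse gave 2277 to 2984 and 2844 to 3666, lowest without day 10 mouse 2. Over the days 13 genes were called: 147 with no filter on low counts, 3 with thinned cells, 24 with no immunoglobulin genes and 18 to 39 with a mouse left out (33 and 39 without day 10 mouse 1 and 2, 18 without either day 16 mouse, 26 and 34 without day 22 mouse 1 and 2). For day 22 minus day 10 the 2 calls became 77 with no filter, 6 with no immunoglobulin genes, 5 without cells of shared barcodes (chosen after seeing the data) and 6 to 24 with a mouse left out (9 and 24, 8 and 6, and 7 and 14 without mouse 1 and 2 of days 10, 16 and 22). No paired analysis was possible for days because each mouse was of 1 day. The share's rho was -0.949 with any mouse left out (exact p = 0.0667, the smallest of 5 mice) and -0.894 without both mice of day 10 or of day 22, settings chosen after seeing the data. UMI differences were -2846 to -2684 and gene differences -617 to -567 with a mouse left out (exact p = 0.0625, the smallest of 5 mice). Of 75 called genes named in the text, Cd83 alone turned direction, at -0.015 in G1 cells. Of the others, Cst3 turned with no filter (-0.038), in G1 cells (-0.16) and with thinned cells (-0.17), and Nt5e (-0.16) and Bach2 (0.054) turned with thinned cells. Cxcr5 turned with no filter (-0.031), in G1 cells (-0.21), with thinned cells (-0.13) and in the main cluster (-0.16), and gave -0.020 to 0.14 with a mouse left out. In no such case did the turned value pass the test.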

Other observations

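Light chains and the heavy chain segment Ighv1-72, known in C57BL/6 mice for the lambda-bearing response to NP, were looked at after the other results were known. Among cells with at least 3 light chain UMIs, those with more lambda than kappa UMIs made up 9.07 ± 2.98% of memory precursors (3.33% to 12.1% over mice) and 10.9 ± 5.36% of light zone cells (3.48% to 19.6%; SD, n = 6 mice). The ranges overlapped, and 3 of 6 mice were lower in memory precursors (2-sided exact permutation test, p = 0.438, the smallest possible being 0.03125). Among cells with at least 3 heavy variable UMIs, Ighv1-72 gave most of those UMIs in 1.91 ± 1.67% of memory precursors (0% to 3.86%) and 6.11 ± 4.57% of light zone cells (0.577% to 13.2%). It was lower in memory precursors in 5 of 6 mice (exact permutation p = 0.0938; 0.188 after Benjamini-Hochberg adjustment over both measures), which does not pass. Of the memory precursors that carried it, 10 came from day 10 mouse 2 and 1 each from day 10 mouse 1, day 16 mouse 2 and day 22 mouse 2.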
